A study of Schizosaccharomyces pombe with 2 samples.

Results

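The vacuolar ATPase (V-ATPase) of fission yeast, Schizosaccharomyces pombe, was examined intron by intron in cells that entered meiosis I with Prp2, the large subunit of the splicing factor U2AF, either working or inactivated. The members were the introns that the deposited table lists under 9 V-ATPase genes, taken by gene identifier: vma1 (SPAC343.05), vma2 (SPAC637.05c), vma3 (SPAC1B3.14), vma5 (SPAPB2B4.05), vma8 (SPCC965.03), vma9 (SPBC1685.16), vma10 (SPBC1289.05c), vma11 (SPAC732.01) and vma16 (SPAC2C4.13). The table held 30 introns of 8 of these genes among its 5374 introns of 2548 genes. vma16 had 0 introns in the table and is annotated with 1 exon. The genes were chosen by function but with the unspliced shares of these libraries known, and one vma9 intron was named for its share at 25 °C. All read counts below are therefore a description and carry no test.

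Both libraries came from 1 culture of a pat1_as2 prp2-1 strain, in which prp2-1 is a temperature-sensitive allele. The cells were held in G1 by nitrogen starvation and driven chemically into synchronous meiosis, and as they entered meiosis I one part was kept at 25 °C, the permissive temperature, and the other was moved to 34 °C, the restrictive one. PolyA RNA was collected 1 h later, giving 1 library per temperature, both with 8 h in their titles. Both carry prp2-1, so inactivation of Prp2 and the temperature itself cannot be told apart, and no difference has a replicate check. The 25 °C library held 636989 intron reads and the 34 °C library 493659. For each intron the unspliced share was taken as 100 times the unspliced reads over all its reads, spliced and unspliced. An intron is called measured where both libraries gave it 20 reads or more, which 29 of the 30 V-ATPase introns and 2508 introns in all did. Shares carry exact Clopper-Pearson 95% intervals and differences Newcombe 95% intervals. These cover counting error only, and reads copied by PCR from 1 molecule are not independent.

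The V-ATPase is a rotary proton pump that acidifies the vacuole and other compartments of the endomembrane system. Its peripheral V1 sector hydrolyses ATP, and this turns a ring of proteolipid subunits in the membrane-embedded V0 sector, which carries protons across the membrane. In fission yeast many of the subunit genes are interrupted by short introns, so the making of those subunits depends on the spliceosome. U2AF recognises the 3′ end of an intron, its polypyrimidine tract and terminal AG, when the spliceosome begins to assemble. Subunit roles below are those known from the budding yeast Saccharomyces cerevisiae, whose subunits carry the same names.

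The unspliced share was higher at 34 °C than at 25 °C in each of the 29 measured V-ATPase introns, as in 97.2% of all measured introns, but by very different amounts. The interval of the difference lay above 0 in 23 of the 29 and in 84.4% of all measured introns. The median share was 5.12% at 25 °C and 27.5% at 34 °C, against 5.6% and 41.4% over all measured introns. The median difference was 19.5 percentage points, with quartiles of 11.1 and 28.6 and extremes of 0.909 points in intron 1 of vma3 and 65.9 points in intron 1 of vma8. Over all 2508 measured introns the median difference was 32.3 points, with quartiles of 15.2 and 51.0. A difference of at least 20 points was found in 14 of the 29 V-ATPase introns, where 67.7% of all measured introns had one. One of at least 10 points was found in 23 (83.7% of all measured introns), of at least 30 points in 6 (53.1%) and of at least 50 points in 2 (26.4%). More than 50% of reads were unspliced at 34 °C in 5 of the 29, where this held for 39.5% of all measured introns. Measured V-ATPase introns had between 21 and 647 reads at 25 °C and between 28 and 392 at 34 °C.

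**Figure D1:**
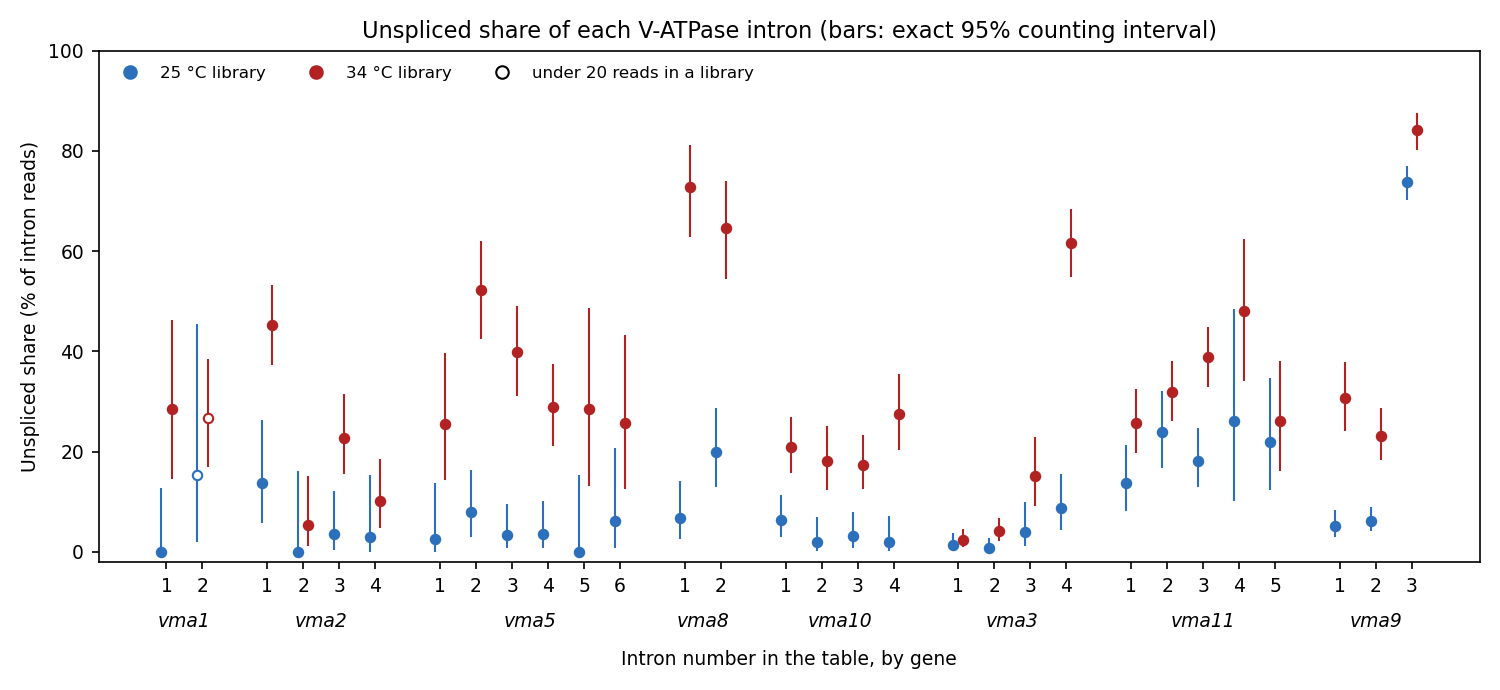
Unspliced share (%) of each of the 30 V-ATPase introns in the 25 °C library (blue) and the 34 °C library (red), by gene and by intron number in the table; vertical bars are exact 95% counting intervals and open circles mark vma1 intron 2, which had 13 reads at 25 °C. Intron 3 of vma9 stands at 73.7% already at 25 °C, both vma8 introns pass 60% at 34 °C, and introns 1 and 2 of vma3 stay below 5% in both libraries.

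**Figure D2:**
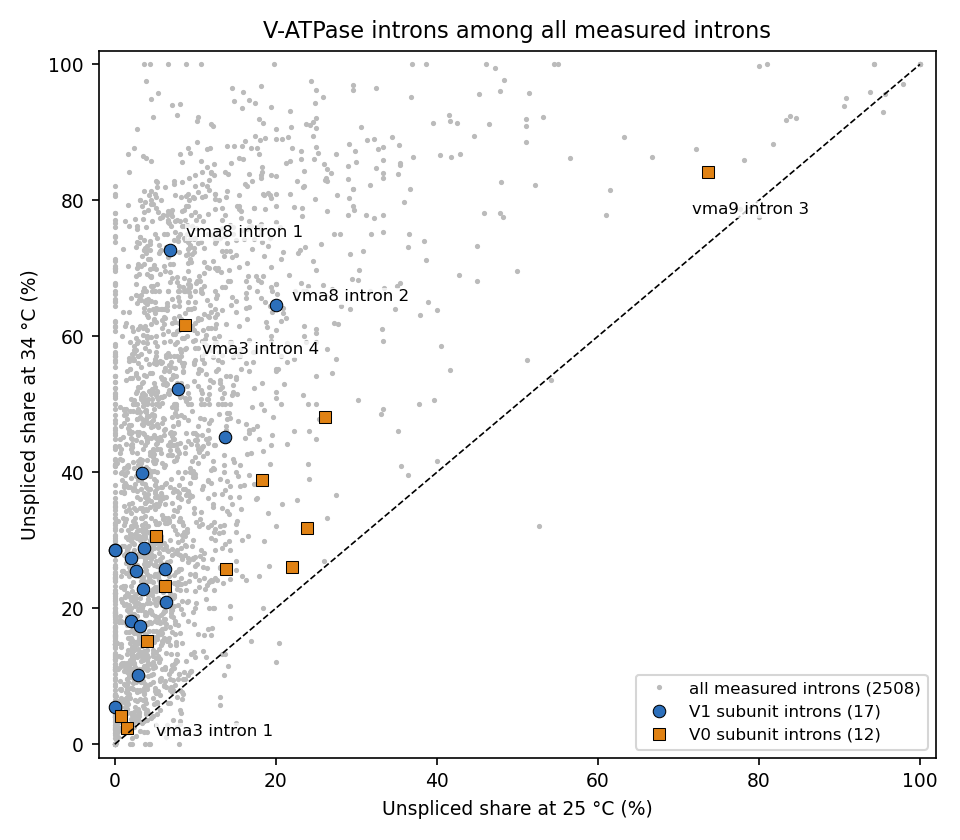
Unspliced share (%) at 34 °C against that at 25 °C for all 2508 measured introns (grey), the 17 of V1 subunit genes (blue circles) and the 12 of V0 subunit genes (orange squares); the dashed line marks equal shares. All 29 V-ATPase introns lie above the line, as do 97.2% of all measured introns, and 5 of the 29 pass 50% at 34 °C, against 39.5%.

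Among the V1 subunits, vma8 held the largest difference of the 29 introns, in its intron 1. The gene encodes subunit D, part of the central rotor stalk that couples ATP hydrolysis to rotation of the ring. Intron 1 had 6 unspliced of 88 reads at 25 °C, 6.82% (2.54 to 14.3), and 72 of 99 at 34 °C, 72.7% (62.9 to 81.2). The difference was 65.9 points (53.9 to 74.5). Intron 2 had 22 unspliced of 110 reads at 25 °C, 20% (13.0 to 28.7), and 64 of 99 at 34 °C, 64.6% (54.4 to 74.0), a difference of 44.6 points (31.7 to 55.5). The intervals of the 2 temperatures did not overlap for either intron, and at 34 °C most reads over both were unspliced. Intron 1, of 40 nt, is shown because it has this largest difference. Capitals mark, here and below, the first 6 bases of the intron, a branch site match where there is one, and the last 3 bases.
vma8 intron 1, chrIII:2285114-2285153, plus strand: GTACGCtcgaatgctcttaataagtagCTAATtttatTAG

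vma1 and vma2 encode subunits A and B, which alternate in the ATP-hydrolysing head, A being the catalytic one. Intron 1 of vma1 follows directly on the start codon. It had 0 unspliced of 27 reads at 25 °C, which allows a share of up to 11.1% when 3 reads are taken as the limit of a count of 0 and 12.8% by the exact interval, and 10 of 35 at 34 °C, 28.6% (14.6 to 46.3). Intron 2 of vma1 had 2 unspliced of 13 reads at 25 °C, too few to be counted as measured, and 19 of 71 at 34 °C, 26.8% (16.9 to 38.6). In vma1 the depth at 25 °C left the size of both differences loosely bounded.

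The introns of vma2 differed among themselves. The gene lies on the minus strand, where introns were taken as numbered by increasing chromosome position. Intron 1 is then the last of the transcript. This direction was inferred from weak correlations in the counts, given with the processing. Intron 1 had 7 unspliced of 51 reads at 25 °C, 13.7% (5.70 to 26.3), and 71 of 157 at 34 °C, 45.2% (37.3 to 53.4). Intron 3 went from 2 of 57 to 26 of 114 reads, a difference of 19.3 points (8.52 to 28.2). For introns 2 and 4 the difference was 5.45 points (-10.4 to 14.9) and 7.29 points (-5.60 to 15.7), and neither could be told from 0 at this depth. Intron 2 had 0 unspliced of 21 reads at 25 °C, which by the same pair of limits allows up to 14.3% and 16.1%.

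vma5 encodes subunit C, which joins the peripheral stalks between V1 and V0 and leaves the complex when V1 comes off the membrane. Its 6 introns, all with a higher share at 34 °C, ran from 0 to 7.89% at 25 °C and from 25.5 to 52.3% at 34 °C. The widest difference was in intron 2, from 6 unspliced of 76 reads to 57 of 109, 44.4 points (31.95 to 54.5). Intron 3 went from 3 of 89 to 49 of 123, 36.5 points (26.2 to 45.6), and intron 4 from 3 of 83 to 37 of 128, 25.3 points (15.6 to 34.0). Introns 1, 5 and 6 had at most 51 reads in a library and differences of 22.9, 28.6 and 19.5 points. The intervals of these 3 also lay above 0, the lowest bound being 1.39 points in intron 6. Intron 5 had 0 unspliced of 22 reads at 25 °C, which allows up to 13.6% by the limit of 3 reads and 15.4% by the exact interval.

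vma10 encodes subunit G, a coiled-coil partner in the peripheral stalks. Its 4 introns had the narrowest spread of the 7 V-ATPase genes with at least 2 measured introns, with differences from 14.2 to 25.4 points. By the same inferred numbering, intron 4 is the first of this minus-strand transcript. It went from 2 unspliced of 98 reads, 2.04% (0.248 to 7.18), to 39 of 142, 27.5% (20.3 to 35.6). In the 34 °C library the shares of introns 1, 2 and 3 were 20.9%, 18.1% and 17.4%, and in the 25 °C library 6.33%, 1.96% and 3.17%. The intervals of the differences overlapped among all 4 introns.

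In the V0 sector the proton-carrying ring is built of the subunits c, c′ and c″, encoded by vma3, vma11 and vma16. The introns of vma3 held the widest contrast within any of the 8 V-ATPase genes. Intron 1 had 4 unspliced of 273 reads at 25 °C, 1.47% (0.401 to 3.71), and 8 of 337 at 34 °C, 2.37% (1.03 to 4.62), a difference of 0.909 points (-1.62 to 3.32). Intron 2 had 2 unspliced of 265 reads, 0.755% (0.0915 to 2.70), and 14 of 339, 4.1% (2.28 to 6.83), a difference of 3.38 points (0.814 to 6.11). These introns had the lowest 34 °C shares of the 29. The upper bounds of their intervals, which cover counting error alone, lie at only a few points.

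The later introns of vma3 did not share this. Intron 3 went from 4 unspliced of 99 reads, 4.04% (1.11 to 10.02), to 18 of 119, 15.1% (9.22 to 22.8). Intron 4 went from 10 of 114, 8.77% (4.29 to 15.5), to 129 of 209, 61.7% (54.8 to 68.3), a difference of 53.0 points (43.5 to 60.4). The gap between the differences of introns 1 and 4 was 52.0 points. Over the 627 genes with at least 2 measured introns the median gap was 23.6 points, and 75 of them had a gap above 50. These genes were not matched to vma3, with its 4 measured introns, for number of introns. A gap between extremes tends to widen with that number. The counts do not show which introns were kept on the same molecule.

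Introns 1 and 2 of vma3 flank an exon of only 6 nt, which lies near the start of the coding sequence, so that almost any read spliced across one of them also crosses the other. Their spliced reads were nearly equal, 269 and 263 at 25 °C and 329 and 325 at 34 °C, and those counts are not independent. Across the table, 27 placed and measured introns lie next to an internal exon of 12 nt or less, 25 of them in genes other than vma3. Those 25 had a median difference of 17.1 points, with quartiles of 8.85 and 24.6. Reads across so small an exon may be aligned differently from others, and the part of alignment in these values was not tested. The 4 introns are shown because 3 of them have almost the same length and yet the smallest and one of the largest differences. All 4 begin with GTAA and hold a branch site match whose A lies 8 to 12 bases from the end of the intron.
vma3 intron 1, chrI:4954651-4954695, plus strand: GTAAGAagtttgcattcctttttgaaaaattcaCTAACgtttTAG
vma3 intron 2, chrI:4954702-4954747, plus strand: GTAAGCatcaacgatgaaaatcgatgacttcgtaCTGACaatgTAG
vma3 intron 3, chrI:4954880-4955067, plus strand: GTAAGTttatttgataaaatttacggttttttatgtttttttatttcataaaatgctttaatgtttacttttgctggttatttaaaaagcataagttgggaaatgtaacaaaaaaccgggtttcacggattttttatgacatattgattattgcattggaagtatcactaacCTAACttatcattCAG
vma3 intron 4, chrI:4955393-4955437, plus strand: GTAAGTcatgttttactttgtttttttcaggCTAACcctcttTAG
The lengths are 45, 46, 188 and 45 nt. Intron 4, whose share differed most, begins with GTAAGT, the 5′ splice site of 27.5% of all placed introns, and the 14 bases before its final 3 hold 9 pyrimidines, as many as in intron 1.

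vma11, for the ring subunit c′, stood out at 25 °C. Its 5 introns had unspliced shares from 13.8 to 26.1% in the 25 °C library, and 3 of them were at or above 20%, where 10.1% of all measured introns were. Intron 2 had 31 unspliced of 130 reads at 25 °C, 23.8% (16.8 to 32.1), and 78 of 245 at 34 °C, 31.8% (26.1 to 38.1), a difference of 7.99 points (-1.73 to 16.9). Intron 3 went from 33 of 181, 18.2% (12.9 to 24.6), to 104 of 268, 38.8% (32.9 to 44.9), a difference of 20.6 points (12.1 to 28.3). Intron 1 went from 16 of 116 to 50 of 194, a difference of 11.98 points (2.64 to 20.3). Intron 4 had only 23 reads at 25 °C and 52 at 34 °C, with 6 and 25 unspliced, and intron 5 went from 13 of 59 to 18 of 69, a difference of 4.053 points (-10.97 to 18.4). The differences of introns 2, 4 and 5 could not be told from 0 at this depth.

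The shares of vma11 at 25 °C were thus above those of vma3, the other ring gene in the table, whose 4 introns had between 0.755% and 8.77%. Every intron of vma11 is overlapped by an exon of an annotated noncoding RNA on the opposite strand, SPNCRNA.2918. Such an overlap is not particular to vma11, since 11 of the 30 V-ATPase introns have one. They include every intron of vma2, with shares of 0 to 13.7% at 25 °C, vma8 intron 1 (6.82%) and vma9 intron 1 (5.12%). Whether the counting used strand is not given in the sources used here. The part of reads from these noncoding RNAs in the unspliced counts was not tested. Over all placed and measured introns the median share at 25 °C was 5.58% both with an opposite-strand exon over the intron (1413 introns) and without one (1000). Introns 1 to 4 of vma11 are shown because they share the raised share at 25 °C, as does intron 5, which is not printed. Single introns of other members had shares near these, with 20% in vma8 intron 2 and 13.7% in vma2 intron 1. Intron 2, at 32 nt, is among the shortest of the table, where 0.0596% of placed introns are of 32 nt or less, and the exon between introns 1 and 2 has 32 nt, that between introns 3 and 4 has 36.
vma11 intron 1, chrI:2057625-2057663, plus strand: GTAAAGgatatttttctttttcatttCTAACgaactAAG
vma11 intron 2, chrI:2057696-2057727, plus strand: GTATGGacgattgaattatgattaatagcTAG
vma11 intron 3, chrI:2057838-2057892, plus strand: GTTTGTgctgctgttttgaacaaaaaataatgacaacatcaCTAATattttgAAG
vma11 intron 4, chrI:2057929-2057973, plus strand: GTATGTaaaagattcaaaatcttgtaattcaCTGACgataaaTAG
Intron 1 begins with GTAAAG, which opens 0.397% of placed introns. The start of intron 2 is found in 1.57% of them, and that of intron 3 in 1.61%. Measured introns of the table with these 3 starts had median shares at 25 °C of 7.01% (12 introns), 6.51% (40) and 7.50% (37). Intron 5, of 292 nt, begins with the common GTATGT, as does intron 4.

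vma9 encodes subunit e, a small membrane protein of V0. Its intron 3 was the one measured V-ATPase intron with more unspliced than spliced reads at 25 °C. It had 477 unspliced and 170 spliced reads at 25 °C, a share of 73.7% (70.2 to 77.1), and 330 unspliced and 62 spliced reads at 34 °C, 84.2% (80.2 to 87.7). The difference was 10.5 points (5.35 to 15.3). Of the 2785 introns with at least 20 reads at 25 °C, 26 had a share at or above that of vma9 intron 3, itself included, and of the 975 with at least 100 reads, 4 did. More than 50% of reads were unspliced at 25 °C in 1.56% of all measured introns, and the next highest V-ATPase intron stood at 26.1%. Of the 3 vma9 introns, intron 3 also had the most reads at 25 °C.

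The upstream introns of vma9 were spliced at 25 °C like most V-ATPase introns. Intron 1 had 15 unspliced of 293 reads, 5.12% (2.89 to 8.30), and 57 of 186 at 34 °C, 30.6% (24.1 to 37.8). Intron 2 had 27 of 434 reads, 6.22% (4.14 to 8.92), and 62 of 267 at 34 °C, 23.2% (18.3 to 28.8). Their differences were 25.5 points (18.6 to 32.8) and 17 points (11.6 to 22.7), both larger than that of intron 3.

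Intron 3 of vma9 lies at chrII:501895-501934 on the plus strand, after the annotated stop codon, in the 3′ untranslated region, so its retention leaves the encoded protein of 67 residues as it is. The other 29 V-ATPase introns lie within coding sequence. Introns of 3′ untranslated regions make up 0.933% of placed introns (47), and 6 of them were measured, vma9 intron 3 among them. These 6 had a median share of 40.9% at 25 °C, from 7.69 to 78.2%, and 5 of them were at or above 20%. At 34 °C the 6 ranged from 75 to 95.7%. No annotated exon of another gene overlaps vma9 intron 3. Its splice sites are shown because they belong to the one V-ATPase intron of the 29 with mostly unspliced reads at both temperatures, with the first 6 and the last 3 bases in capitals.
vma9 intron 3, first 6 bases: GTTTGT
vma9 intron 3, last 17 bases: ttttacttatcgttTAG
The 40 nt intron holds 11 pyrimidines in the 14 bases before its final 3, against a median of 8 over placed introns, and none of the 4 branch site motifs. Its first 6 bases are the same as those of vma11 intron 3, and the 37 measured introns of the table that begin this way had a median share of 7.50% at 25 °C and a median difference of 41.7 points.

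**Figure D3:**
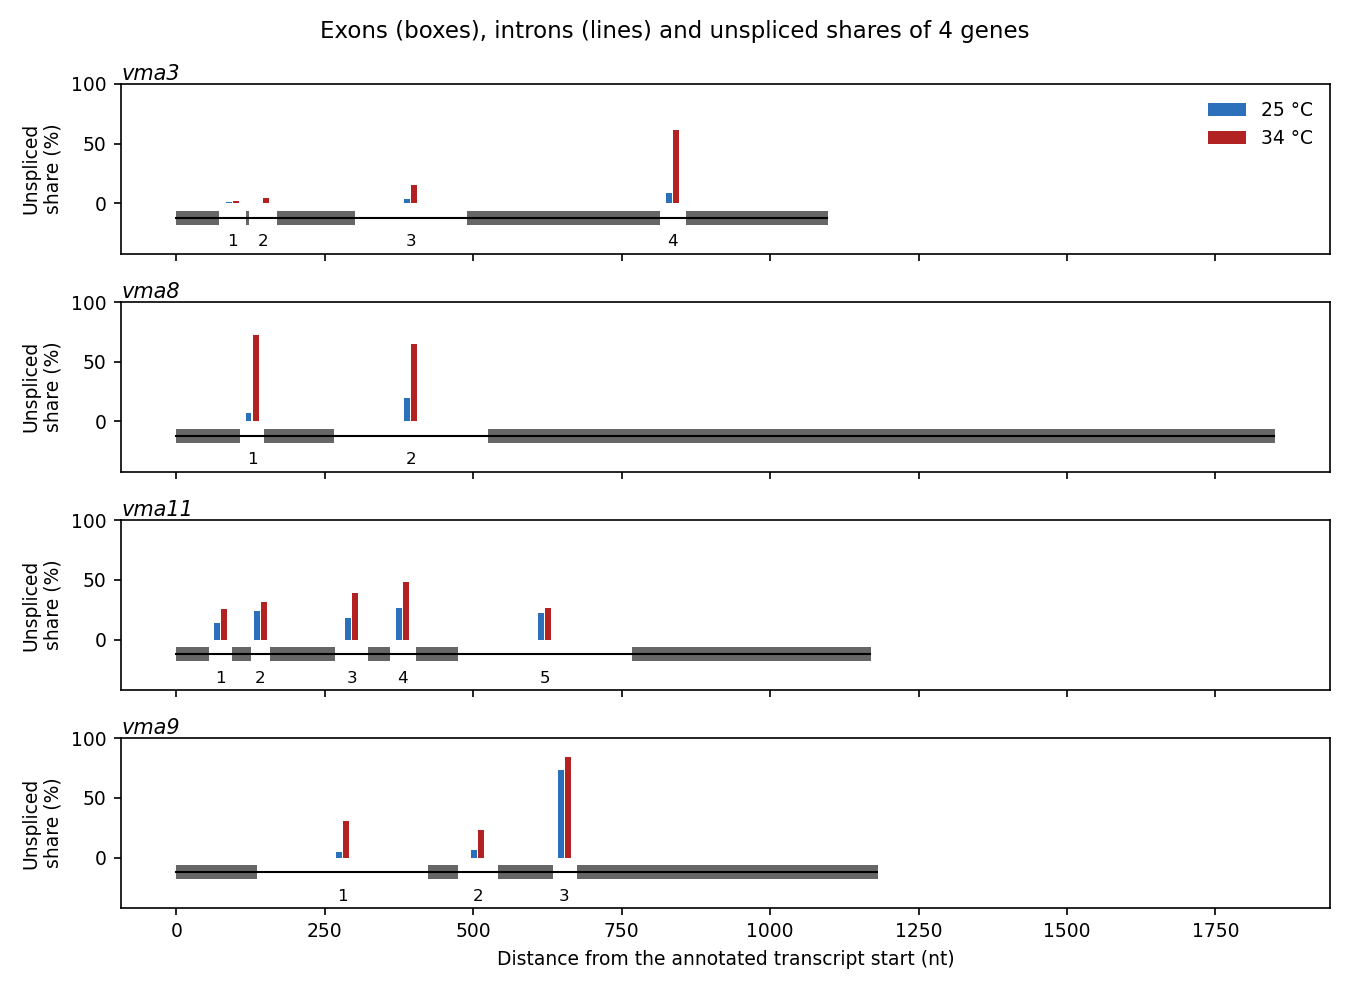
Exon and intron layout of vma3, vma8, vma11 and vma9 (boxes are exons, lines introns, numbers the introns of the table), by distance from the annotated transcript start in nt, with the unspliced share (%) of each intron at 25 °C (blue) and 34 °C (red) above it. The 34 °C bars of vma3 run from 2.37% in intron 1 to 61.7% in intron 4, and the blue bar of vma9 intron 3 reaches 73.7%.

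By sector, the 17 measured introns of V1 genes had a median share of 3.37% at 25 °C and 27.5% at 34 °C, and a median difference of 25.3 points. The 12 of V0 genes had 11.3%, 28.4% and 11.5 points. A difference of at least 20 points was found in 10 of 17 and 4 of 12, where 67.7% of all measured introns had one. Each sector is represented only by the member genes. The measured introns of vma6 and vph1, V0 genes outside the members, differed by 35.6 and 47.4 points. vma11 and intron 3 of vma9 hold 6 of the 12 V0 introns, so the V0 values rest on few genes, and introns of 1 gene are not independent of each other. At 34 °C the 2 sectors had nearly equal medians.

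In sequence the V-ATPase introns resembled the introns of the table in most respects. Their median length was 50 nt, with quartiles of 45 and 78.8, against 56 nt (46 to 86) over 5037 placed introns that begin with GT and end with AG. Of the 30, 9 began with GTAAGT, the start of 27.5% of placed introns, and 6 began with GTATGT, the start of 19.99%. The branch site was searched on the strand of the transcript, in the last 60 nt of each intron, as the motif CTAAC or its variant CTAAT, and also as the motif CTGAC or its variant CTGAT. The one nearest to the end of the intron was taken. A match was found in 19 of the 30 V-ATPase introns and in 75.6% of placed introns. The same 5′ splice site went with very different values: the 9 introns with GTAAGT differed between temperatures by 5.45 to 52.95 points and the 6 with GTATGT by 4.053 to 36.5. The value of 5.45 belongs to vma2 intron 2, with 21 reads at 25 °C and an interval of -10.4 to 14.9. Its sequence is assigned by the inferred numbering of the minus strand. On the plus strand the lowest with GTAAGT was 11.1 points, in vma3 intron 3. The median over all measured introns was 22.9 points for GTAAGT and 29.1 for GTATGT.

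The reference sequence also gives what keeping a single intron would do to the reading frame. Of the 29 coding introns, 27 hold an in-frame stop codon when kept alone, though 10 have a length that is a multiple of 3. In vma10 intron 3, by the inferred numbering, the frame shifts and meets a stop in the exons after it. Intron 2 of vma9 is the exception, since its 66 nt contain no stop in frame and would lengthen the protein from 67 to 89 residues. Kept alone, intron 4 of vma3 would end translation at 174 residues in place of 161, whereas intron 1 would end it after 6. Intron 1 of vma8 would end it after 23 of 285 residues.

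Reads per gene were compared between libraries next. Spliced reads of a gene were summed over its introns, expressed per 1000000 intron reads of the library, and the 34 over 25 °C ratio was divided by the median ratio of the 1610 genes with at least 20 intron reads in each library, 0.876. This last step makes the value independent of the choice of scaling, which otherwise shifts all log2 ratios by -0.37 without scaling and by 0.64 per 1000000 spliced reads. vma1 had 38 spliced reads at 25 °C and 77 at 34 °C, 2.99 times the ratio of the median gene (counting interval 1.999 to 4.53). vma2 had 153 and 305, 2.94 times (2.41 to 3.59). These genes, for the subunits of the ATP-hydrolysing head, had the highest values of the 8, at percentiles 95.5 and 95.2 of the 1610 genes.

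vma8 and vma9 had the lowest values of the 8, at percentiles 23.3 and 32.2 of the 1610 genes, so less far from the middle than vma1 and vma2. vma8 had 170 spliced reads at 25 °C and 62 at 34 °C, 0.537 times the ratio of the median gene (0.395 to 0.723). vma9 had 855 and 396, 0.682 times (0.604 to 0.770). Between vma9 and vma2 in value, vma5 had 325 and 301 (1.36 times), vma3 731 and 835 (1.68), vma10 466 and 575 (1.82) and vma11 410 and 553 (1.99). The spliced reads of the 8 genes thus did not move together between the libraries, with 6 genes above and 2 below the median gene. At a given total, spliced reads fall as the unspliced share rises, so these values are not separate from the shares described above. vma8, for example, had 198 reads of both kinds in each library. With unspliced reads included, the ratio per 1000000 intron reads had a median of 1.86 over the 8 genes and 1.54 over all 1610. vma9 was lowest at 0.794 (0.728 to 0.865), which became 1.23 per 1000000 spliced reads, and vma1 highest at 3.42 (2.36 to 5.05). Divided by the median of the 1610 genes, these ratios were 0.839 for vma8, 0.516 for vma9, 1.17 for vma5 and 1.12 for vma3. For vma10, vma11, vma2 and vma1 they were 1.26, 1.37, 2.13 and 2.22. It is not known whether an unspliced message could be counted at both borders of an intron, so the sum of both kinds of read is not a plain measure of message amount.

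**Figure D4:**
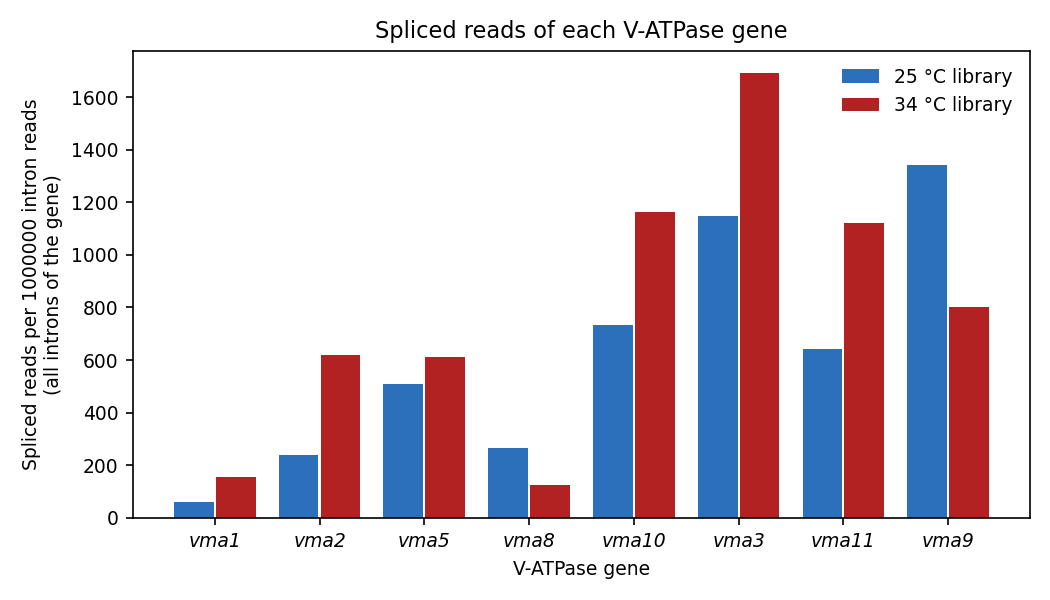
Spliced reads per 1000000 intron reads of the library, summed over the introns of each V-ATPase gene, in the 25 °C library (blue) and the 34 °C library (red), 1 library each and no error bars. On this scale vma8 and vma9 are lower at 34 °C and the other 6 genes higher, vma5 only through the scaling (325 and 301 reads unscaled); heights are comparable within a gene, not between genes, since genes differ in their number of introns.

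The remaining subunit genes that the table holds were described after their values had been seen. vma4, for subunit E, had 0 introns in the table. vma6 (subunit d), vma7 (F), vma13 (H) and vph1 (a) had 6 measured introns, with a median share of 3.04% at 25 °C and 40.5% at 34 °C. Their differences ran from 15 points in vma13 intron 4 (0.796 to 28.7) to 56.4 points in vma13 intron 3 (38.6 to 67.9). The median was 38.8, and 5 of 6 were at least 20 points, where 67.7% of all measured introns were. The single intron of vma6 went from 5 unspliced of 151 reads to 44 of 113, and that of vma7 from 1 of 71 to 36 of 105. Since both sets are small and the members were chosen with results known, no contrast between them is drawn.

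Lists of related genes gave the following values. Over all measured introns, for reference, the median difference was 32.3 points, and 67.7% had at least 20. A list of other V-ATPase subunits and assembly factors, which includes those 4 genes, had 13 measured introns of 8 genes, a median difference of 35.6 points and 11 introns with at least 20. Its deepest such intron was intron 1 of skp1, a component of the RAVE assembly complex in budding yeast and of SCF ubiquitin ligases, from 60 unspliced of 204 reads to 532 of 778. The deepest below 20 points was intron 2 of vma21, for an assembly factor in the endoplasmic reticulum, from 6 of 79 to 11 of 73, a difference of 7.47 points (-2.80 to 18.2). The mitochondrial F-type ATP synthase, a rotary enzyme related to the V-ATPase, had 18 measured introns of 10 genes, a median difference of 28.5 points and 11 introns with at least 20. There, intron 1 of atp20 went from 6 of 521 reads to 196 of 609, and intron 1 of atp15 from 37 of 661 to 156 of 872. Vacuolar transport and fusion genes had 14 measured introns of 7 genes, a median of 21.3 points and 9 introns with at least 20. In that list intron 1 of ypt7, for the Rab GTPase of vacuole fusion, went from 13 of 633 to 125 of 418, and intron 3 of ctr6, for a vacuolar copper transporter, from 5 of 271 to 38 of 175.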

How the data were processed

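PolyA RNA libraries from 25 °C and 34 °C, 1 each, were assigned by title. The deposited table holds whole-number read counts of spliced and unspliced reads per intron, and the ratio spliced over unspliced that the authors formed once zeros had been set to 1, per the file headers. Only the counts were used. Per the submitters' processing notes TopHat and SAMtools were used (no versions). Build, annotation, counting tool and what makes a read unspliced: not given in the sources used here.

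Shares, intervals and medians were computed with Python 3.11.15, numpy 2.4.6, pandas 2.3.3 and scipy 1.17.1, and figures with matplotlib 3.10.9. The intervals and the size calls were run on simulated independent reads. These held no copied reads and no variation between libraries, so they could not check the intervals against either. Introns were placed by number on the ASM294v3 RefSeq annotation, which may differ from the authors', in 2418 genes (5089 introns) whose intron number equals that of exactly 1 transcript. All 8 members matched. Which way introns are counted on the minus strand was read from the counts. In plus-strand genes read depth at 25 °C was correlated with place along the transcript with a Spearman rho of 0.0845 across introns. In minus-strand genes it was 0.144 when introns were counted by chromosome position and -0.144 when counted along the transcript. Intron length against the 34 °C share within genes gave, in the same order, -0.158, -0.185 and 0.0522. Counting by chromosome position was used. Members and lists were chosen with earlier results of these data known. All member introns were described, and of each list the deepest measured intron on either side of 20 points. Alternatives were minimums of 1, 10 and 50 reads, 1 intron per gene, introns free of overlapping exons, pooled shares, log2 odds ratios, other sizes of rise and other scalings.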

Additional observations from a re-analysis of the deposited data

How the results depend on the processing

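No paired analysis was possible because each temperature has 1 library. The median difference of the V-ATPase introns, 19.5 points, was 19.4 with a minimum of 10 reads or of 1 read, 18.1 with 50 reads and 21.2 over the 18 introns free of overlapping exons. It was 24.6 with the deepest intron of each of the 8 genes and 14.1 for the pooled share. Without vma9 intron 3, chosen after seeing the data, the pooled difference was 20.4 and the median 20.02. The median log2 odds ratio was 2.29. The count at or above 20 points, 14 of 29, became 9 of 18 over introns free of overlapping exons. With 1 intron per gene it was 5 of 8. Both came from fewer introns. Of all measured introns 67.7% had at least 20 points, and 5 of 8 lay closer to this than 14 of 29. That 67.7% counts every measured intron, not 1 per gene. Over the 29 introns the count was 23 at a size of 10 points (all measured introns 83.7%), 6 at 30 (53.1%) and 2 at 50 (26.4%). The share of vma9 intron 3 at 25 °C held no count of 0 and was 73.7% either way. The median ratio of reads, 1.86, was 1.44 without scaling and 2.90 per 1000000 spliced reads. vma9, at 0.794, reversed to 1.23 per 1000000 spliced reads, through the constant shift of that scaling. At this depth the interval of the difference reached 0 or below in 6 of the 29 introns, of vma2, vma3 and vma11.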
